A study of Mus musculus with 8 samples.

Results

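A set of 10 ETS family transcription factor genes was followed in mouse splenic B cells sorted by their production of interleukin-10. They were Ets1, Spib, Spi1, Etv5, Etv6, Elf1, Fli1, Elk1, Elk3 and Elk4. They were chosen by gene name, as the rows of the deposited expression table whose Ensembl identifiers carry these symbols in GENCODE M21, and all 10 were found among the table's 26589 genes. ETS factors are named after a shared DNA-binding domain that recognises a short core sequence, GGAA. In B cells, PU.1 (the product of Spi1) and its close relative Spi-B (the product of Spib) bind composite sites together with the interferon regulatory factors IRF4 and IRF8 and maintain genes of B cell receptor signalling. Ets-1 restrains the passage of B cells into antibody-secreting cells. The ternary complex factors Elk-1, Elk-3 and Elk-4 act with serum response factor downstream of the kinase ERK.

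The data were 8 bulk RNA-seq libraries, 4 from IL-10+ cells and 4 from IL-10- cells. Both groups came from the spleens of the reporter strain IL-10-eGFP Tiger, whose cells carry a green fluorescent protein linked to the Il10 gene, and both received lipopolysaccharide, a ligand of Toll-like receptor 4, at 3 µg/ml for 48 h before sorting. A treatment tag reading untreated goes against the protocols, which were followed, and the labels give neither the age of the mice nor whether a replicate number marks a mouse, a culture or a sort. The p-values below therefore measure the spread between libraries, which may be partly technical. The study's title concerns oxidative phosphorylation and ERK signalling in IL-10 production. The comparison asks which of these factors differ between IL-10-producing and other stimulated B cells.

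Library totals lay between 27380398 and 29968285 reads. Il10, on which the cells were sorted, stood at 32.0 to 44.4 FPKM in IL-10+ against 1.28 to 4.76 FPKM in IL-10- libraries. FPKM are reads scaled by the length of the gene and by the depth of the library, so levels of different genes can be compared on this scale. The B cell receptor genes Cd79a and Cd79b were at or above 279.2 FPKM in each library. They belong to a list of 7 B cell markers, of which 3 fell in IL-10+ cells (Ms4a1, Cd22 and Pax5) and 0 rose. The median log2 change of the 7 was -0.42, against -0.06 over all tested genes. In the fit with the replicate block, described below, 6 of them fell and 1 rose, against 33.3% and 20.4% of all tested genes. Plasmablast markers were higher in IL-10+ cells: all 4 tested markers rose, and the 5 markers summed to 275.9 to 364.4 FPKM against 51.2 to 82.6 FPKM. Immunoglobulin segments took 13.2% to 16.8% of all FPKM in IL-10+ against 3.73% to 4.73% in IL-10- libraries. Libraries of the same replicate number deviated together from their group means, so a second fit had the number as a block, and its values are given for the members whose call it altered. In bulk samples, fewer cells of a type and less RNA per cell cannot be told apart.

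All 10 members were expressed above the filter of 1 FPKM in at least 4 libraries, and each passed it in both groups. Between the groups, 1 rose and 2 fell in IL-10+ cells (limma on log2(FPKM + 1), Benjamini-Hochberg adjusted p under 0.05 over the 11329 tested genes). The 3 called members were Etv5, which rose, and Spib and Elk1, which fell. Over all tested genes 19.7% were called, 10.6% higher and 9.18% lower. With the replicate block 5 members were called, 2 higher (Etv5 and Elk4) and 3 lower (Spib, Etv6 and Elk1), against 53.7% of all genes, 20.4% higher and 33.3% lower. The groups did not overlap for 3 members and for 25.2% of all genes. The direction was the same in all 4 replicate numbers for 5 members and for 64.7% of all genes. The share of members called was thus near that of all genes in the blocked fit. From replicates 1 and 2 alone 2 members were called, Etv5 higher and Spib lower, against 9.76% of all genes (6.94% higher and 2.82% lower). From replicates 3 and 4 alone 4 were called, Etv5 and Elk3 higher and Spib and Etv6 lower, against 23.4% of all genes (11.3% higher and 12.1% lower). The median log2 change of the members was -0.06, and that of all tested genes was -0.06 as well.

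**Figure D1:**
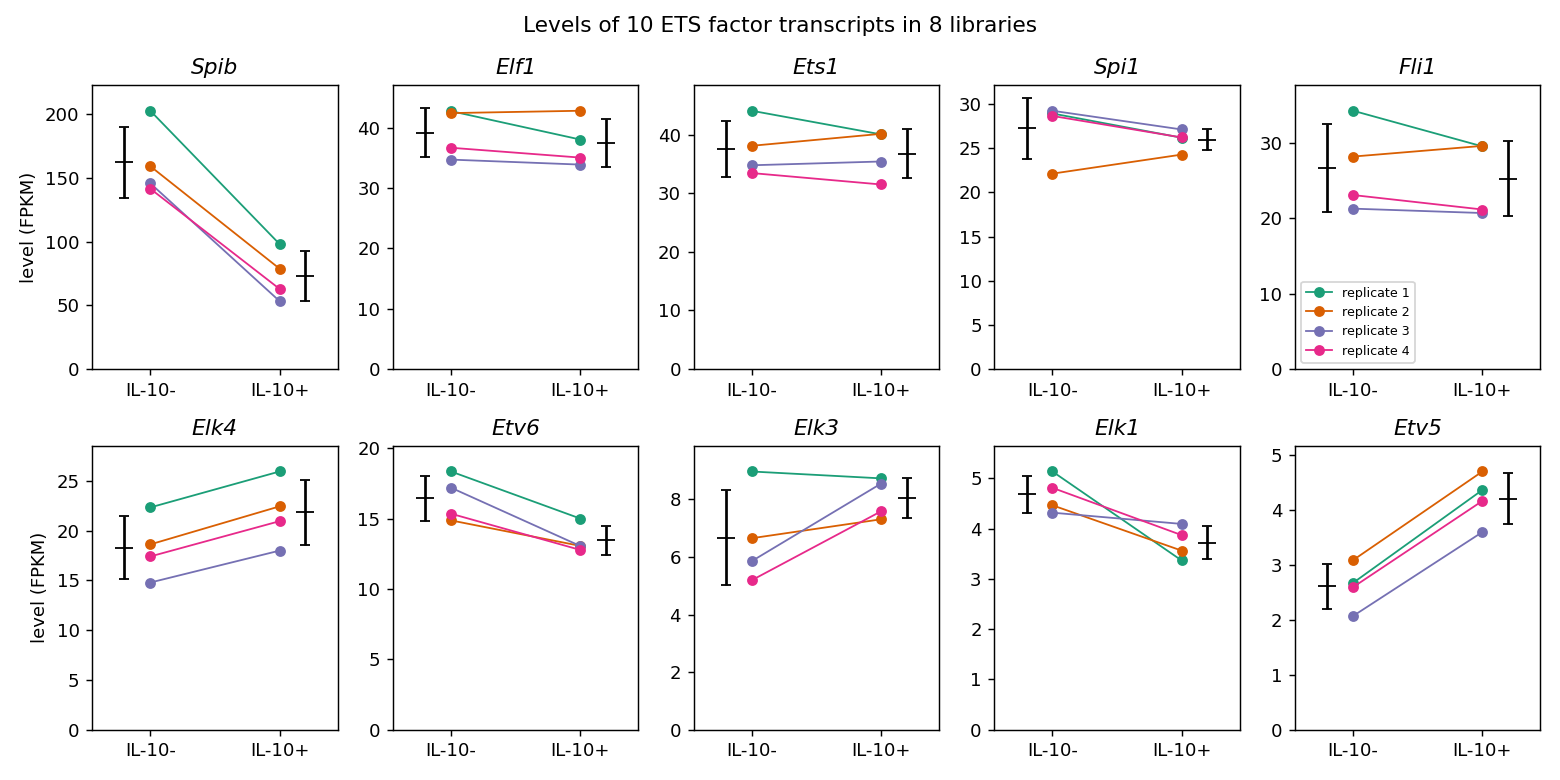
Level in FPKM (y axis, from 0) of each of the 10 members in IL-10- and IL-10+ libraries (x axis). Points are libraries, lines join libraries of the same replicate number, and black bars give the mean and SD of 4 libraries. Spib and Elk1 are lower and Etv5 higher in all IL-10+ libraries, and Elk4 is higher along each of the 4 lines although its groups overlap.

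Promoter stretches of 2 members are shown first, those of the member with the largest fall, Spib, and of Elk4, whose stretch was singled out after its motif counts were seen. Both are the bases before the RefSeq start (GRCm38.p6), 5′ to 3′ on the gene's strand, for Elk4 up to the first base of its GENCODE transcript. Capitals mark the ETS core GGAA or its reverse complement TTCC.
Spib, chr7:44532072-44532321, minus strand: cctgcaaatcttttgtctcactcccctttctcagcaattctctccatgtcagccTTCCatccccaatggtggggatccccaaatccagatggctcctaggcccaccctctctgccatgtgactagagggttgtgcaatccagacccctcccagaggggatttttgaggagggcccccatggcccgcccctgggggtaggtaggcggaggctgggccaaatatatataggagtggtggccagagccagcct
Elk4, chr1:132007370-132007606, plus strand: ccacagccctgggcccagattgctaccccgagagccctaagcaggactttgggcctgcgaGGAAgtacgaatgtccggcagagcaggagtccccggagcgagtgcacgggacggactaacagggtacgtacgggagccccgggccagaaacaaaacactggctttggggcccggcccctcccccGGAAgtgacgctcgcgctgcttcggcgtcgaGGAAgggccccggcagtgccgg
The Spib stretch of 250 bases held 1 core and the Elk4 stretch of 237 bases held 3. Among 32851 RefSeq promoter stretches of 250 bases, 93.4% held at least 1 core on either strand and 54.7% at least 3. A pair of longer forms that contain the core were also counted on both strands. GAGGAAG, the form typical of PU.1 and Spi-B, occurred 2 times in the Elk4 stretch and 0 times in that of Spib, and 10.6% of all stretches held at least 1 and 0.950% at least 2. CCGGAAG, the form typical of Ets-1 and the ternary complex factors, occurred 1 time in the Elk4 stretch, and 6.91% of all stretches held at least 1. RefSeq entries were matched for 7 of the 10 members with 11 start sites, and none of the other 9 starts held either longer form. These are matches of letters and not measured binding.

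Spib was the most abundant member in both groups and the one with the largest change. It lies on chromosome 7 at 44525993 to 44532071 (ENSMUSG00000008193; gene positions here and below are those of GENCODE M21, GRCm38). Its level was 98.1, 78.8, 53.3 and 62.9 FPKM in IL-10+ replicates 1 to 4, and 202.9, 159.3, 145.9 and 141.6 FPKM in IL-10- replicates 1 to 4. The groups did not overlap, and the highest IL-10+ library stayed below the lowest IL-10- library. Spib thus fell 2.22-fold, from 162.4 ± 28.0 to 73.3 ± 19.6 FPKM (SD, n = 4), a log2 change of FPKM + 1 of -1.16 (SE 0.193, limma adjusted p = 0.00338). An exact permutation test over the 8 libraries, two-sided, gave p = 0.0286, which is its lowest possible value with 4 libraries a group. Here and below this test shuffled libraries without regard to replicate number, so it left out the pairing of same-numbered libraries. Within replicate numbers Spib was lower in 4 of 4, by 2.07-fold, 2.02-fold, 2.74-fold and 2.25-fold for numbers 1 to 4. Leaving out any one of the 8 libraries kept the call (adjusted p 0.00141 to 0.0127).

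Spi1, which encodes PU.1, the closest relative of Spi-B, was not called in any fit. Spi1 (chromosome 2, 91082390 to 91115756, ENSMUSG00000002111) was at 26.2, 24.3, 27.1 and 26.2 FPKM in IL-10+ against 28.9, 22.1, 29.3 and 28.7 FPKM in IL-10- replicates 1 to 4. The values overlapped, and IL-10- replicate 2 was the lowest of all 8. The log2 change was -0.06 (SE 0.0965, limma adjusted p = 0.714), and it was -0.15 without IL-10- replicate 2 (adjusted p = 0.163). The ratio of Spib to Spi1, in FPKM, was 3.75, 3.24, 1.96 and 2.40 in IL-10+ and 7.01, 7.20, 4.99 and 4.94 in IL-10- replicates 1 to 4. The ratio did not overlap between the groups, and its mean was 2.84 ± 0.806 against 6.03 ± 1.24 (SD, n = 4). PU.1 is also a factor of macrophages. Of 9 macrophage and monocyte markers 8 were below 1 FPKM in all libraries, among them Csf1r (at most 0.0822 FPKM), Cd14 and Lyz2. The exception was Cd68, a lysosomal protein, at 5.83 to 10.1 FPKM, with a log2 change of 0.02 (limma adjusted p = 0.948). The 9 summed to 6.52 to 10.5 FPKM among IL-10+ libraries and 6.99 to 11.5 FPKM among the others, and 4 dendritic cell markers to 7.57 to 11.4 FPKM and 9.59 to 14.9 FPKM. Nearly all of the latter was Flt3, a growth factor receptor, at 7.45 to 11.2 FPKM against 9.49 to 14.7 FPKM (adjusted p = 0.157, and 0.000659 with the block). Itgax, Zbtb46 and Siglech were at most 0.243 FPKM in any library. The part of these markers in the results was not tested. The 6 T cell markers summed to at most 0.296 FPKM in any library.

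The partners of PU.1 and Spi-B at composite sites differed in opposite directions. Irf4, which promotes plasma cell differentiation, ranged from 120.1 to 160.9 FPKM among IL-10+ libraries and from 53.2 to 63.8 FPKM among IL-10- libraries, with no overlap. It rose 2.44-fold (log2 change 1.27, SE 0.110, limma adjusted p = 9.28e-05). Irf8, which acts in germinal centre and follicular B cells, was at 67.8 to 87.0 FPKM against 85.5 to 131.5 FPKM, with overlap (log2 change -0.43, adjusted p = 0.0644, and 0.00175 with the replicate block). The ratio of Irf4 to Irf8 averaged 1.85 ± 0.413 (SD, n = 4) among IL-10+ libraries, against 0.563 ± 0.131 among the others, and did not overlap. Irf4 in turn stood at 2.07 ± 0.631 times the level of Spib in IL-10+ libraries and at 0.369 ± 0.0743 times in IL-10- libraries. Of 14 partners of ETS factors, all tested, 1 rose (Irf4) and 2 fell, against 10.6% and 9.18% of all tested genes. Their median log2 change was -0.22, against -0.06 over all tested genes. The blocked fit called 2 partners higher and 8 lower, against 20.4% and 33.3% of all tested genes. The 2 that fell were Pax5, the factor of B cell identity, from 150.5 ± 19.7 to 87.2 ± 11.7 FPKM, and Ikzf1, which encodes Ikaros, from 135.4 ± 10.9 to 109.6 ± 9.98 FPKM (SD, n = 4). Ikzf1 lost its call on leaving out any of 6 libraries (adjusted p up to 0.120) and with median-of-ratios scaling or scaling without immunoglobulin and mitochondrial genes (adjusted p 0.0585 and 0.0744). With the replicate block added it was called under both scalings (0.00125 and 0.00129).

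**Figure D2:**
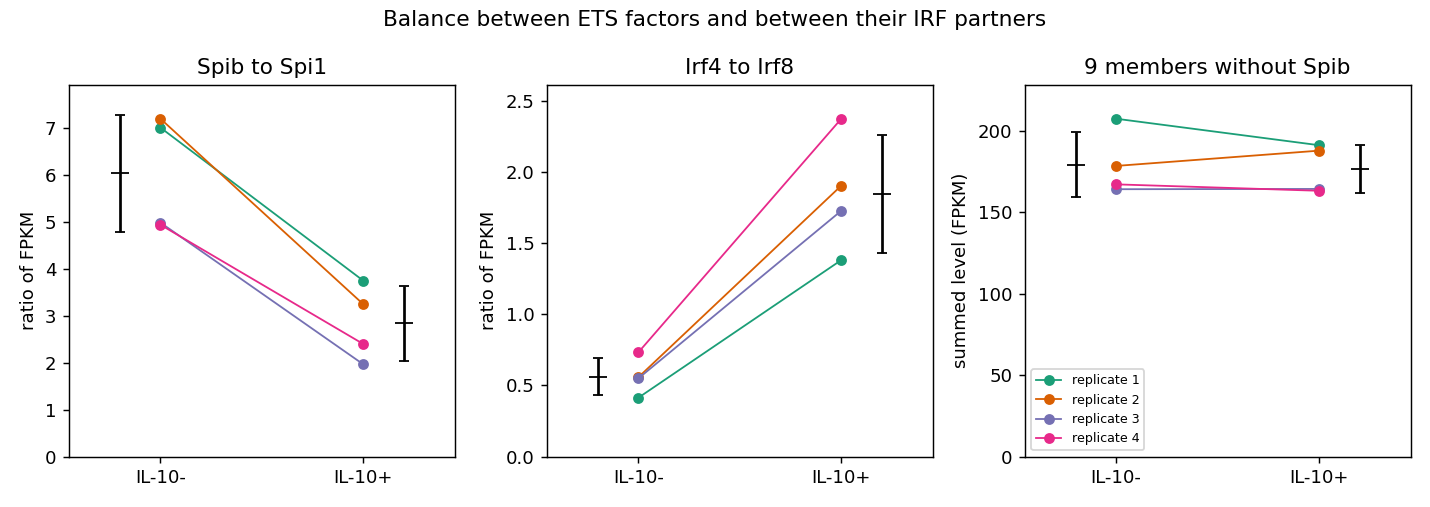
Ratio of Spib to Spi1, ratio of Irf4 to Irf8 and summed FPKM of the 9 members other than Spib (y axes, from 0) in IL-10- and IL-10+ libraries (x axis). Points are libraries, lines join equal replicate numbers and black bars give mean and SD of 4 libraries. The first ratio is lower and the second higher in all IL-10+ libraries, while the sums overlap.

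The summed level of the 10 members was lower in IL-10+ libraries. It ran from 217.8 to 289.5 FPKM among IL-10+ libraries and from 308.9 to 410.5 FPKM among the others. Spib made up 28.9% ± 3.93 of the sum (SD, n = 4) among IL-10+ libraries and 47.4% ± 1.497 among the others. Without Spib the other 9 members summed to 176.8 ± 14.9 FPKM in IL-10+ against 179.4 ± 19.8 FPKM in IL-10- libraries, with overlapping values. The order of the members by mean level was the same in both groups except for the lowest pair. After Spib came Elf1, Ets1, Spi1, Fli1, Elk4, Etv6 and Elk3, and last Elk1 and Etv5, of which Etv5 was lowest in IL-10- and Elk1 in IL-10+ cells. Neighbours whose libraries overlapped in both groups were Elf1 with Ets1, Spi1 with Fli1, and Fli1 with Elk4. Elk4 overlapped Etv6 only in IL-10- and Etv5 overlapped Elk1 only in IL-10+ cells.

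Genes known to be bound or controlled by PU.1 and Spi-B in B cells were mostly lower in IL-10+ cells. Of 15 such genes, all tested, 9 fell and none rose (limma; 10 lower and 1 higher at an unadjusted p under 0.05). With the replicate block 12 fell and 2 rose, namely Blnk (adjusted p = 0.0507, and 0.00280 with the block) and Cd79a (0.385, and 0.0120 with the block), both of B cell receptor signalling. The median log2 change was -0.44, against -0.06 over all tested genes, of which 9.18% fell. With the block 33.3% of all tested genes fell and 20.4% rose. The list was drawn up with results of these libraries known, and 5 to 9 of its genes fell when 1 library was left out, 5 of them without IL-10- replicate 1 or without IL-10+ replicate 4. Plasmablast markers, given above, rose where most of these genes fell, and their part in the result was not tested.

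The 4 largest falls on this list were Fcer2a, Tlr9, Cd72 and Bach2. Fcer2a encodes the IgE receptor CD23 and was at 24.2, 11.9, 4.39 and 7.74 FPKM in IL-10+ against 129.3, 89.9, 50.6 and 57.6 FPKM in IL-10- replicates 1 to 4. The groups did not overlap, 6.78-fold apart in the means (log2 change -2.80, SE 0.473, limma adjusted p = 0.00365). Like Spib, Fcer2a was higher in replicates 1 and 2 than in 3 and 4 of both groups. Tlr9, the receptor for unmethylated CpG DNA, fell 2.59-fold, from 23.7 ± 2.92 to 9.17 ± 2.03 FPKM (SD, n = 4). Bach2, which restrains the plasma cell programme, fell 2.47-fold and the co-receptor gene Cd72 fell 2.36-fold. Cd72 lost its call on leaving out any of 4 libraries (adjusted p up to 0.0692).

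**Figure D3:**
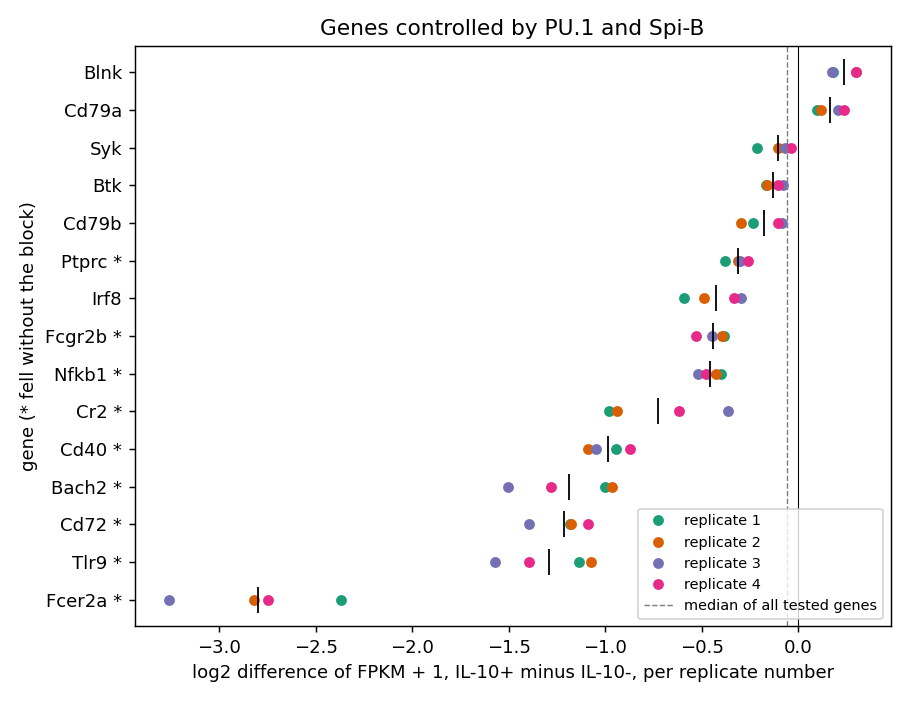
Log2 difference of FPKM + 1 between IL-10+ and IL-10- libraries (x axis) for 15 genes controlled by PU.1 and Spi-B (y axis). Points are the 4 replicate numbers, black ticks the means and the dashed line the median of all tested genes. An asterisk marks the 9 genes that fell, and Blnk and Cd79a lie above 0 in each number.

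Ets1 and Fli1 lie side by side on chromosome 9, and neither was called. Both encode activators, and Fli-1 also acts in megakaryocytes and endothelium. Fli1 occupies 32422204 to 32542861 on the minus strand (ENSMUSG00000016087) and Ets1 32636221 to 32757820 on the plus strand (ENSMUSG00000032035), 93359 bases apart with no annotated protein-coding gene between them. Ets1 was at 40.1, 40.2, 35.4 and 31.5 FPKM in IL-10+ against 44.1, 38.1, 34.8 and 33.5 FPKM in IL-10- replicates 1 to 4. Fli1 was at 29.6, 29.6, 20.7 and 21.2 FPKM in IL-10+ against 34.3, 28.2, 21.3 and 23.1 FPKM in IL-10- replicates 1 to 4. For both genes the groups overlapped, while replicates 1 and 2 stood above 3 and 4 in each group. The change between groups was -0.03 for Ets1 (SE 0.111, limma adjusted p = 0.884) and -0.07 for Fli1 (SE 0.177, adjusted p = 0.812), both log2. Fli1 was 1.41-fold higher in the mean of replicates 1 and 2 than in that of 3 and 4, in IL-10+ and in IL-10- cells. The sign of the change of Ets1 turned under these same scalings, to a log2 change of 0.00, and neither gene was called in any fit.

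Ets1 is among the genes that oppose plasma cell formation, and Prdm1 encodes the plasma cell regulator Blimp-1. Of 6 plasma cell regulators, some of which stand on the lists above too, 3 rose (Prdm1, Xbp1 and Irf4) and 2 fell (Bach2 and Pax5), and with the block Bcl6 fell as well (adjusted p = 0.0630, and 0.000638 with the block). Prdm1 was at 49.7 to 53.4 FPKM in IL-10+ libraries and at 4.22 to 9.56 FPKM in IL-10- libraries, 7.42-fold apart. Xbp1, the factor of the secretory programme, was 4.07-fold higher, at 187.8 ± 12.8 against 46.1 ± 10.7 FPKM (SD, n = 4). In the same libraries the mean of Ets1 differed by 2.19%.

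Replicates 1 and 2 stood above 3 and 4 in both groups for 6 of the 10 members, Ets1, Fli1, Elf1, Elk4, Spib and Etv5, and for 24.9% of all tested genes. Elf1, a broadly expressed ETS factor of lymphocytes, was the second most abundant member. Elf1 (chromosome 14, 79481194 to 79582494, ENSMUSG00000036461) was at 33.9 to 42.8 FPKM in IL-10+ against 34.7 to 42.8 FPKM in IL-10- libraries, which overlapped. Its log2 change was -0.06 (SE 0.1002, limma adjusted p = 0.713).

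Etv5, a PEA3-type factor whose gene is known to be induced by ERK signalling, rose in IL-10+ cells. Etv5 lies on chromosome 16 at 22381309 to 22439719 (ENSMUSG00000013089). Its level was 4.36, 4.70, 3.60 and 4.16 FPKM in IL-10+ against 2.67, 3.09, 2.07 and 2.59 FPKM in IL-10- replicates 1 to 4. These low levels rested on 426 to 539 reads per IL-10+ library and 239 to 361 reads per IL-10- library. The groups did not overlap, and Etv5 was higher in 4 of 4 replicate numbers, by 1.52-fold to 1.74-fold. The mean rose 1.61-fold, from 2.61 ± 0.417 to 4.20 ± 0.462 FPKM (SD, n = 4), a log2 change of FPKM + 1 of 0.53 (SE 0.104, limma adjusted p = 0.00776). The exact permutation test gave p = 0.0286, and leaving out any one of the 8 libraries kept the call (adjusted p 0.00831 to 0.0274).

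Of 9 feedback genes of the ERK pathway, 5 were tested, 1 rose (3 with the block) and none fell (3 higher and 0 lower at an unadjusted p under 0.05). The median log2 change of the 5 was 0.28, against -0.06 over all tested genes, of which 10.6% rose (20.4% with the block). The gene that rose was Dusp4, which encodes a phosphatase of ERK, from 16.7 ± 6.04 to 35.3 ± 11.9 FPKM (SD, n = 4; log2 change 1.03, limma adjusted p = 0.0377). Leaving out any of 6 libraries lost this call (adjusted p up to 0.10). Dusp5, another ERK phosphatase, was at 18.3 ± 7.77 against 7.68 ± 4.65 FPKM (adjusted p = 0.0695, and 0.000188 with the replicate block), and Dusp6 at 10.8 ± 2.42 against 10.0 ± 3.65 FPKM (adjusted p = 0.743). Etv4, another PEA3-type factor, was at 0.223 to 0.612 FPKM in IL-10+ against 0.160 to 0.345 FPKM in IL-10- libraries and was below the filter.

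Of the 3 ternary complex factors, Elk1 fell and the others were not called without the block. Elk1 (chromosome X, 20933395 to 20950608, ENSMUSG00000009406) was at 3.37, 3.56, 4.09 and 3.87 FPKM in IL-10+ against 5.14, 4.46, 4.32 and 4.81 FPKM in IL-10- replicates 1 to 4. The groups did not overlap, though IL-10+ replicate 3 and IL-10- replicate 3 were only 1.05-fold apart. Elk1 fell 1.26-fold (log2 change -0.27, SE 0.0760, limma adjusted p = 0.0397; exact permutation p = 0.0286). The call did not survive leaving out any of 6 libraries (adjusted p up to 0.105), nor testing without a filter on low values (0.0836), median-of-ratios scaling (0.0643) or scaling without immunoglobulin and mitochondrial genes (0.0709). With the replicate block Elk1 was called as deposited (0.0262) and under both scalings (0.0404 and 0.0430). Uxt on the same strand shares 76 exon bases with Elk1, 1.41% of its exon length.

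Elk4 encodes SAP-1 and lies on chromosome 1 at 132007607 to 132032612 (ENSMUSG00000026436), 982632 bases beyond Il10 with 16 protein-coding genes between them. Its level was 26.0, 22.5, 18.0 and 20.96 FPKM in IL-10+ against 22.3, 18.6, 14.8 and 17.4 FPKM in IL-10- replicates 1 to 4. The groups overlapped, and within each number the IL-10+ library was higher, by 1.16-fold, 1.21-fold, 1.22-fold and 1.204-fold. The log2 change was 0.25, not called without the block (SE 0.140, limma adjusted p = 0.265) and called with it (SE 0.0266, adjusted p = 0.000919). Over all tested genes 24.3% were higher in 4 of 4 numbers. Mfsd4a, a transporter gene on the opposite strand, shares 84 exon bases with Elk4, 1.31% of the exon length of Elk4. Mfsd4a was at 8.48 to 13.1 against 7.09 to 9.95 FPKM and higher in 4 of 4 numbers. No source at hand gives the strand setting of the counting, so reads in the shared bases cannot be assigned.

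Elk3, also called Net, a repressor until ERK phosphorylates it, differed between the replicate numbers. Elk3 (chromosome 10, 93247414 to 93311135, ENSMUSG00000008398) was at 8.73, 7.31, 8.55 and 7.59 FPKM in IL-10+ against 8.97, 6.65, 5.86 and 5.19 FPKM in IL-10- replicates 1 to 4. IL-10- replicate 1 was the highest of all 8 libraries, and IL-10+ cells were higher in the other 3 numbers, by 1.099-fold, 1.46-fold and 1.46-fold. The log2 change was 0.26 (SE 0.141, limma adjusted p = 0.246). It became 0.39 once IL-10- replicate 1 was dropped (adjusted p = 0.0277). Leaving out any of the other 7 libraries gave no call (adjusted p up to 0.477), and the change was 0.16 without IL-10- replicate 4. From replicates 1 and 2 alone the log2 change was 0.04 (adjusted p = 0.901), and from 3 and 4 alone 0.47 (adjusted p = 0.0289). Cdk17 on the opposite strand shares 316 exon bases with Elk3, 6.95% of its exon length, and Cdk17 was at 6.94 to 7.88 against 7.57 to 9.69 FPKM.

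Immediate early genes with serum response elements, on which the ternary complex factors act, showed no call without the replicate block. Of 10 such genes, all tested, 0 rose and 0 fell (limma; 1 higher and 0 lower at an unadjusted p under 0.05). With the replicate block 2 of them rose and 3 fell, against 20.4% and 33.3% of all tested genes. The most abundant were Mcl1, a survival factor, at 145.9 ± 3.09 against 134.8 ± 5.86 FPKM, and Junb, an AP-1 subunit, at 103.0 ± 26.0 against 129.2 ± 39.9 FPKM (SD, n = 4). The blocked calls included both, Mcl1 higher (adjusted p = 0.212, and 0.0272 with the block) and Junb lower (0.414, and 0.0252 with the block). Srf itself, the partner of the Elk factors, had a log2 change of -0.07 (adjusted p = 0.604). Of 9 kinases that phosphorylate ETS factors 2 fell and none rose (3 lower and 0 higher at an unadjusted p under 0.05). They were Mapk3, which encodes ERK1, from 23.4 ± 2.02 to 16.3 ± 1.48 FPKM (1.43-fold; adjusted p = 0.00450), and Mapk9, which encodes JNK2, from 8.79 ± 0.342 to 7.32 ± 0.508 FPKM (adjusted p = 0.0339; not called on leaving out any of 7 libraries, with adjusted p up to 0.0907). Of all tested genes 9.18% fell, and 33.3% fell with the block. With the block 5 of the kinases fell and 0 rose. Only 2 fell with the block under median-of-ratios scaling, and 2 with the block under scaling without immunoglobulin and mitochondrial genes.

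Etv6, a repressor also called TEL, was lower in IL-10+ cells within each replicate number. Etv6 (chromosome 6, 134035700 to 134270158, ENSMUSG00000030199) was at 15.0, 13.1, 13.1 and 12.8 FPKM in IL-10+ against 18.4, 14.9, 17.2 and 15.4 FPKM in IL-10- replicates 1 to 4. The groups overlapped only in that IL-10+ replicate 1 lay above IL-10- replicate 2. The difference was 1.22-fold (log2 change -0.27, SE 0.0848, limma adjusted p = 0.0592; exact permutation p = 0.0571). Etv6 was called with the replicate block (adjusted p = 0.00292), and also once IL-10+ replicate 1 was dropped (0.0387) or the filter was raised to 5 FPKM in 4 libraries (0.0488). It was not called on leaving out any of the other 7 libraries (adjusted p up to 0.140) or without a filter on low values (0.0984). Median-of-ratios scaling (0.0734) and scaling without immunoglobulin and mitochondrial genes (0.112) gave no call either, except with the block (0.00547 and 0.00568). Over all tested genes 40.4% were lower in 4 of 4 numbers.

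**Figure D4:**
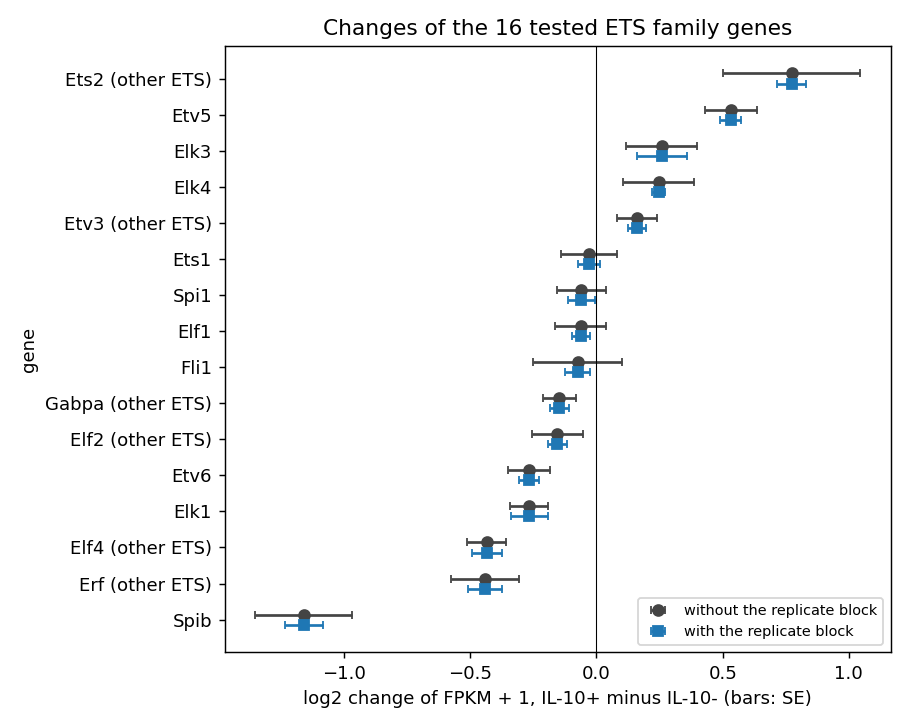
Log2 change of FPKM + 1, IL-10+ minus IL-10- (x axis), of the 16 tested ETS family genes (y axis), without (grey circles) and with (blue squares) the replicate block; bars are standard errors. Spib has the lowest and Ets2 the highest change, and the bars of Ets2, Fli1, Spib and Elk4 are shorter with the block.

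Of 16 other ETS family genes on the list, 15 were in the table and 6 were tested. The 9 not tested were below 1 FPKM in every library, among them Spic, the third gene of the PU.1 subfamily, at no more than 0.0666 FPKM. Of the 6, 1 fell and 0 rose (limma; 3 lower and 1 higher at an unadjusted p under 0.05), and with the block 4 fell and 2 rose. Elf4, a factor of lymphocyte quiescence, fell 1.37-fold, from 20.1 ± 1.23 to 14.7 ± 1.204 FPKM (SD, n = 4), without overlap, a log2 change of -0.43 (SE 0.0771, adjusted p = 0.00457). Ets2, the closest relative of Ets1, was at 24.7, 20.04, 15.5 and 12.35 FPKM in IL-10+ against 16.1, 10.5, 7.80 and 7.03 FPKM in IL-10- replicates 1 to 4. The groups overlapped, and Ets2 was higher in 4 of 4 numbers, with a log2 change of 0.77 (SE 0.272, adjusted p = 0.0829, and 0.000280 with the replicate block). Gabpa, a factor of housekeeping promoters, was at 21.8 ± 1.47 against 24.2 ± 0.569 FPKM (adjusted p = 0.151, and 0.0211 with the block). With the block it was not called under median-of-ratios scaling (0.0559) or scaling without immunoglobulin and mitochondrial genes (0.0662). Over the 16 tested ETS family genes, members included, 1 rose and 3 fell, and 4 rose and 7 fell with the block, all on the values as deposited. Of all tested genes 10.6% rose and 9.18% fell, and 20.4% rose and 33.3% fell with the block.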

How the data were processed

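Per the submitters' processing notes, reads were processed with HISAT2 2.1.0 and HTSeq 0.6.0 on mm10. The authors deposited FPKM for 26589 genes in 8 libraries, while annotation, strand setting and shared reads are not described in the sources at hand. GENCODE M21 (GRCm38, the same build) gave symbols and positions for 26517 identifiers, 72 not found. FPKM times exon length times 1 library total gave whole reads (within 0.05) for 93.5% to 93.6% of values above 0, which gave the depths (0.0334 to 0.0365 FPKM for a single read over a 1 kb gene). No library was a near-copy (chi-square per degree of freedom 9.00 to 82.9 within groups).

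FPKM are not counts, so log2(FPKM + 1) was tested with limma 3.58.1 (R 4.3.3, variance trend) over the 11329 genes reaching 1 FPKM in 4 or more libraries, with calls at 0.05 after Benjamini-Hochberg adjustment. This scale understates changes of low genes, and folds are ratios of mean FPKM. On simulated data over those genes the fit called 35.8% of 67 genes changed by a log2 of 0.5, 77.6% of 67 changed by 1 and 98.5% of 66 changed by 2, with 4 false calls. The simulated libraries were drawn independently, without the deviation that same-numbered libraries share. These rates therefore cannot be carried over to the real libraries.

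Same-numbered libraries deviated together (correlation across genes 0.71, 0.58, 0.62 and 0.70), so by the rule in use (above 0.1 in every pair) the samples count as paired, a reading taken from the values, since no label states it. Unlike numbers passed 0.1 too, 1 with 2 (0.35 and 0.28) and 3 with 4 (0.37 and 0.43), though below every same-numbered value. The rule alone therefore cannot tell pairing by number from a shared split of 1 and 2 against 3 and 4. All members were named; in each other list up to 4 called genes of largest change, or, with fewer than 2 called, the most abundant (up to 2). Other named genes were chosen after their values were seen. Members and lists were chosen with earlier results of these data known. Alternatives were other pseudocounts, filters, scalings and variance models, the block, and subsets of libraries.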

Additional observations from a re-analysis of the deposited data

Results flagged for a closer look

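In 4 of 68 groups of 4 values examined, 1 library lay far from the other 3, and chance gives about 1 in 20. Spi1 was at 22.1 FPKM in IL-10- replicate 2 and at 28.7 to 29.3 FPKM in the other IL-10- libraries. Etv6 was at 15.0 FPKM in IL-10+ replicate 1 and at 12.8 to 13.1 FPKM in the other IL-10+ libraries. Pax5 was at 179.9 FPKM in IL-10- replicate 1 against 138.7 to 142.3 FPKM, and Mapk3 at 14.1 FPKM in IL-10+ replicate 3 against 16.9 to 17.2 FPKM.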

How the results depend on the processing

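Spib and Etv5 kept their direction and call in every alternative fit that tested them (20 and 19). The replicate block raised the genes called from 2236 to 6083 (2312 higher and 3771 lower) and the members called from 3 to 5. The block gave 5724 (2537 and 3187) with median-of-ratios scaling and 5666 (2550 and 3116) when scaled without immunoglobulin and mitochondrial genes, again with 5 members each. Higher calls were 53.5% of all calls as deposited, 59.2% with median-of-ratios scaling and 62.2% when scaled without those genes. Within replicates 1 and 2 alone 1106 genes were called (786 higher, 320 lower), and the lower calls ranged from 607 to 954 when 1 library was left out, with 687 without IL-10+ replicate 2 and 607 without IL-10+ replicate 3. Ets1 changed sign with median-of-ratios scaling (0.00081 log2), when scaled without immunoglobulin and mitochondrial genes (0.0039), both also with the replicate block, without IL-10- replicate 1 (0.047) and without IL-10+ replicate 4 (0.040), with a range of -0.082 to 0.047 on leaving out 1 library. Fli1 did so without IL-10- replicate 1 (0.050), IL-10+ replicate 3 (0.011) and IL-10+ replicate 4 (0.00045; range -0.17 to 0.050). Dusp6 did so from replicates 1 and 2 alone (-0.044) and without IL-10- replicate 4 (-0.061; range -0.061 to 0.29). The cause was not tested. Elk1 and Etv5 were the members with the fewest reads, and whether depth limited their results was not tested. The 5 FPKM filter left these 2 members out. On the values as deposited the block changed the calls of Etv6 and Elk4 and of no other member. Under either scaling it changed that of Elk1 too.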
